A study of Homo sapiens with 12 samples.

Results

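The distal end of the long arm of human chromosome 3, from 190 Mb to the end of the chromosome at 198.3 Mb, lost H2A.Z and acetylated H2A.Z (H2A.Zac) at many sites and gained them at few in cells whose EP400 cannot bind TRRAP. The stretch is 8.30 Mb long and was selected on the classes of its regions in these same lists, that is, on the small number of gained among its changed regions. Its members are all regions of the deposited lists that start at or beyond 190 Mb on chromosome 3 (hg38), which gave 761 of the 158028 regions of the series, 308 of H2A.Z and 453 of H2A.Zac. The cells were K562, a human erythroleukemia line, and the assay was chromatin immunoprecipitation followed by sequencing (ChIP-seq). In both lines compared, endogenous EP400 carries a degron tag and was degraded with 500 nM dTAGV-1 for 24 h, while a second EP400 was expressed from the AAVS1 safe-harbor locus. The WT line expressed the intact protein and the ΔTRRAP line a protein lacking its SANT domain and hydrophobic domain (HD), and each line was 1 clone. The 12 libraries were 2 replicates per line of the input and of the ChIP for each mark. Because each line was 1 clone, the effect of the deletion and other differences between the clones, including in DNA copy number, cannot be told apart. The input libraries were not analysed here.

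EP400 is the ATP-dependent motor and the scaffold of the TIP60 complex, which exchanges nucleosomal H2A for the variant H2A.Z and can acetylate the histones it acts on. TRRAP is the large subunit of TIP60 that is contacted by transcription factors and helps bring the complex to its sites. H2A.Z is found at the nucleosomes next to active promoters and at enhancers, and its acetylated form is associated with active transcription. The 3q end holds genes of iron uptake, mitochondrial fusion, Notch signaling, ubiquitin signaling and glycosylphosphatidylinositol (GPI) anchor synthesis, and the band 3q29 within it is the site of a recurrent deletion linked to neurodevelopmental disorders.

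Each region carries 1 value, the log10 of a likelihood ratio that compares the pileups of WT and ΔTRRAP with the replicates merged. It states how far the data favor a difference between the lines and is not a fold change. Regions over the cutoff of 3 were listed as higher in WT (called lost here) or higher in ΔTRRAP (called gained), and the others as unchanged. The lists hold no value per replicate and no read counts, so no spread between replicates and no test between the lines can be given, and the depth is unknown here. Parts of 1 peak can be listed as several regions, also of different classes. Wilson 95% confidence intervals of shares cover counting error only, and neighboring regions are not independent. Fewer cells with a mark and less of it per cell cannot be told apart in these data.

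Sequences are shown for the sites on which the description turns. The first is the central 300 bases of the strongest lost H2A.Z region of the 3q end (hg38, plus strand), at chr3:195003332-195003631.

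Strongest lost H2A.Z region: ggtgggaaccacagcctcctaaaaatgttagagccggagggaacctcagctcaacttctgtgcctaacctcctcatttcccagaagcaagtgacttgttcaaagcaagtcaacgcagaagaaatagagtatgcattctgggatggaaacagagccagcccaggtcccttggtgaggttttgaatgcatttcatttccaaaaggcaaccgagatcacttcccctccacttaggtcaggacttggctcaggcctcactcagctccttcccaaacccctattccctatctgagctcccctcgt

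The next 4 are the 250 bases before the RefSeq start (GRCh38.p14) of TFRC, ZDHHC19, PLAAT1 and UTS2B. TFRC is the nearest protein-coding gene start to 3 of the 5 gained H2A.Z regions. The starts of ZDHHC19 and PLAAT1 held a lost region of each mark. UTS2B had a gained H2A.Zac region 0.443 kb upstream of its start, outside the printed bases, and an unchanged one over the start. The 4 sequences lie at chr3:196082091-196082340 on the minus strand, chr3:196211401-196211650 on the minus strand, chr3:193240972-193241221 on the plus strand and chr3:191330527-191330776 on the minus strand. Capitals mark the only match found in these 5 sequences to the motifs searched.

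TFRC promoter: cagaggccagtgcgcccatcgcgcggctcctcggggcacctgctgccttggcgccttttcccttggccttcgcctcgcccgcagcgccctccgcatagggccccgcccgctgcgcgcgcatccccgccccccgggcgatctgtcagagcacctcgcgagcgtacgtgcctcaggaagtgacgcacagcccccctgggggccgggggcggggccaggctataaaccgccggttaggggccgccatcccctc

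ZDHHC19 promoter: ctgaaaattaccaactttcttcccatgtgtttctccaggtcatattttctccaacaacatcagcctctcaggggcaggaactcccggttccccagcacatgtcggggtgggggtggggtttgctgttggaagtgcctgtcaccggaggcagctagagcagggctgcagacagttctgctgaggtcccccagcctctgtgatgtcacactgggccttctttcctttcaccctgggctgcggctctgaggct

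PLAAT1 promoter: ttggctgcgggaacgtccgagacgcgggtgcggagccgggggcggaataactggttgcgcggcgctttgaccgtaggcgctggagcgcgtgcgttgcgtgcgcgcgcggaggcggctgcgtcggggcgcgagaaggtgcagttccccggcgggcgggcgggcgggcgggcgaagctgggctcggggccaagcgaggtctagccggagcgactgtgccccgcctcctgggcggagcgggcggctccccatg

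UTS2B promoter: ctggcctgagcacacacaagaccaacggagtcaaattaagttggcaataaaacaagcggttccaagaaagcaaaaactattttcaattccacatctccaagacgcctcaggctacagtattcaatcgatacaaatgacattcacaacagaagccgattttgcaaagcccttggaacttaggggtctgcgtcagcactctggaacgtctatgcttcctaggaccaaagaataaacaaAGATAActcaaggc

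The promoters of TFRC and PLAAT1 were rich in G and C (74.4% and 76.0%) and held 29 and 41 CpG dinucleotides. Those of ZDHHC19 (56.8%, 4 CpG) and UTS2B (43.6%, 7 CpG) were poorer in both. The letters AGATAA of the GATA motif were found once before UTS2B, at base 237 of the 250. Motifs were searched on both strands as exact letters, and no motif contains another. RefSeq promoters were matched by symbol for 53 of the 62 protein-coding genes that start in the stretch, and APOD is named without its sequence. AGATAA was present in 2 of the 53 (3.77%, SMCO1 and UTS2B) and in 9.17% of all 35116 promoter entries. The 53 are a single entry per protein-coding gene, whereas the 35116 are every entry of the set, so the shares compare unlike sets. The E-box CACGTG was present in 3 (5.66%, against 6.34% of all), the NF-Y letters CCAAT in 16 (30.2% against 32.0%), the AP-1 letters TGACTCA in 2 (3.77% against 4.20%), the palindromic core of the NRF1 motif in 2 (3.77% against 1.03%), the ETS letters ACTTCCGG in 4 (7.55% against 3.42%) and the E2F letters TTTCGCGC in 0 (against 0.439%). In the central 300 bases of the regions, AGATAA was found in 16 of 157 lost and 18 of 146 unchanged H2A.Z regions (10.2% and 12.3%), and in 13.0% of all H2A.Z regions of the series. The AP-1 letters were found in 8 of 157 lost and 12 of 146 unchanged H2A.Z regions (5.10% and 8.22%), against 5.73% in the series. The E-box was found in 6.37% of lost and 4.11% of unchanged H2A.Z regions (5.42% in the series). The ETS letters were found in 3 lost and 1 unchanged region (1.91% and 0.685%, against 1.29%), and CCAAT in 22.3% and 21.9% (27.2%). The NRF1 core was found in 0 lost and 1 unchanged region, and the E2F letters in 0 of either. A match describes the letters of a window and not the binding of a factor.

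Loss outnumbered gain for both marks along the whole stretch. For H2A.Z, 157 regions were lost, 5 gained and 146 unchanged. For H2A.Zac, 249 were lost, 28 gained and 176 unchanged. Lost regions thus made up 51.0% of the H2A.Z regions (95% confidence interval, 45.4 to 56.5%) and 55.0% of the H2A.Zac regions (50.4 to 59.5%), against 19.8% and 25.9% in the series. Gained regions made up 1.62% and 6.18%, against 14.1% and 26.3%. These counts are what the stretch was chosen for and are given as a description. Among changed regions, the gained share was 3.09% for H2A.Z (1.33 to 7.02%) and 10.1% for H2A.Zac (7.09 to 14.2%), whereas on the rest of chromosome 3 it was 50.6% (47.6 to 53.5%) and 56.9% (55.0 to 58.8%).

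The median likelihood ratio of lost regions was higher in the 3q end than in the series, and that of gained regions was lower. The classes on which the stretch was selected are cut on this same ratio, so these values are a description and no separate trait. The median ratio of lost regions was 7.15 for H2A.Z and 9.74 for H2A.Zac, against 5.95 and 8.27 in the series. The median of gained regions was 5.21 for H2A.Z, over 5 regions only, and 5.43 for H2A.Zac, against 5.48 and 6.87 in the series. At a ratio of at least 10, 30 H2A.Z regions were lost and 0 gained, and 123 H2A.Zac regions were lost and 6 gained. In the series these counts were 1409 lost and 903 gained for H2A.Z and 9504 lost and 6529 gained for H2A.Zac. In sequence covered, 128 kb of H2A.Z regions were lost and 3.52 kb gained, and 269 kb of H2A.Zac regions were lost and 16.4 kb gained. The series held 8306 kb lost and 5304 kb gained for H2A.Z, and 21374 kb lost and 21926 kb gained for H2A.Zac.

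The stretch is separated from the rest of the chromosome by a gap with almost no regions, and the chromosome just before it was of the opposite sign. The 8.30 Mb before 190 Mb held 73 gained and 33 lost H2A.Z regions, a gained share of 68.9%, and 120 gained and 60 lost H2A.Zac regions, a share of 66.7%. Within them, the 4 Mb from 182 to 186 Mb held 67 gained and 7 lost H2A.Z regions and 102 gained and 21 lost H2A.Zac regions. In the next 2 Mb, from 186 to 188 Mb, loss already outnumbered gain, with 26 lost and 6 gained H2A.Z regions and 39 lost and 17 gained H2A.Zac regions. The change of sign therefore lay near 186 Mb and not at the boundary of the stretch. The last H2A.Z region outside was an unchanged one at chr3:187889811-187891266 with a ratio of 1.20, 2110 kb before the boundary, next to a lost one with a ratio of 4.26. The only H2A.Zac region between 188 and 190 Mb was unchanged, with a ratio of 1.38. The first H2A.Z region inside, at chr3:191240586-191241035 in an intron of OSTN, was unchanged with a ratio of 1.02 and lay 1241 kb past the boundary. Of the 9 windows of 1 Mb or less inside the stretch, 1 was empty, and in each of the other 8 more regions were lost than gained for both marks. H2A.Z regions were gained in 2 of these 8 windows, and 4 of the 5 lay in the window from 196 to 197 Mb that holds the TFRC start. Without that window, the gained share of changed H2A.Z regions was 0.800%.

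**Figure D1:**
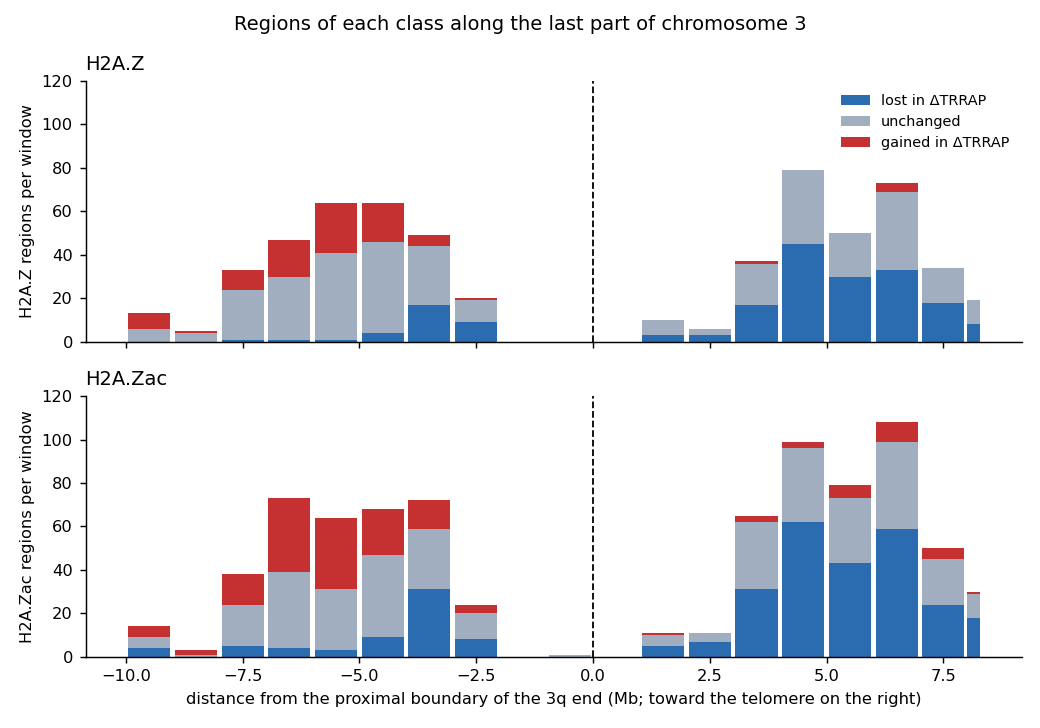
Stacked bars give the number of lost, unchanged and gained regions of H2A.Z (top) and H2A.Zac (bottom) in windows of 1 Mb along the last part of chromosome 3, by distance from the 190 Mb boundary (dashed line). The last window is shorter because the chromosome ends there. Gained regions outnumber lost ones in the 4 windows from 182 to 186 Mb and lost regions outnumber gained ones in every filled window right of the line.

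Other chromosome ends of the same length were less one-sided, with few exceptions. Over the last 8.30 Mb of the other 22 chromosomes (1 to 22 and X), the median gained share was 34.7% for H2A.Z (range, 0 to 80.2%) and 49.5% for H2A.Zac (14.9 to 65.4%). For H2A.Z, only the end of chromosome 20 lay lower than the 3q end, with 0 of 103 changed regions gained, and the end of chromosome 19 was next above it with 6.02% (3.30 to 10.7%). The intervals of these 2 ends and of the 3q end overlap. For H2A.Zac, no end lay lower, and the nearest was chromosome 20 with 14.9% (10.4 to 21.0%), whose interval overlaps that of the 3q end.

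**Figure D2:**
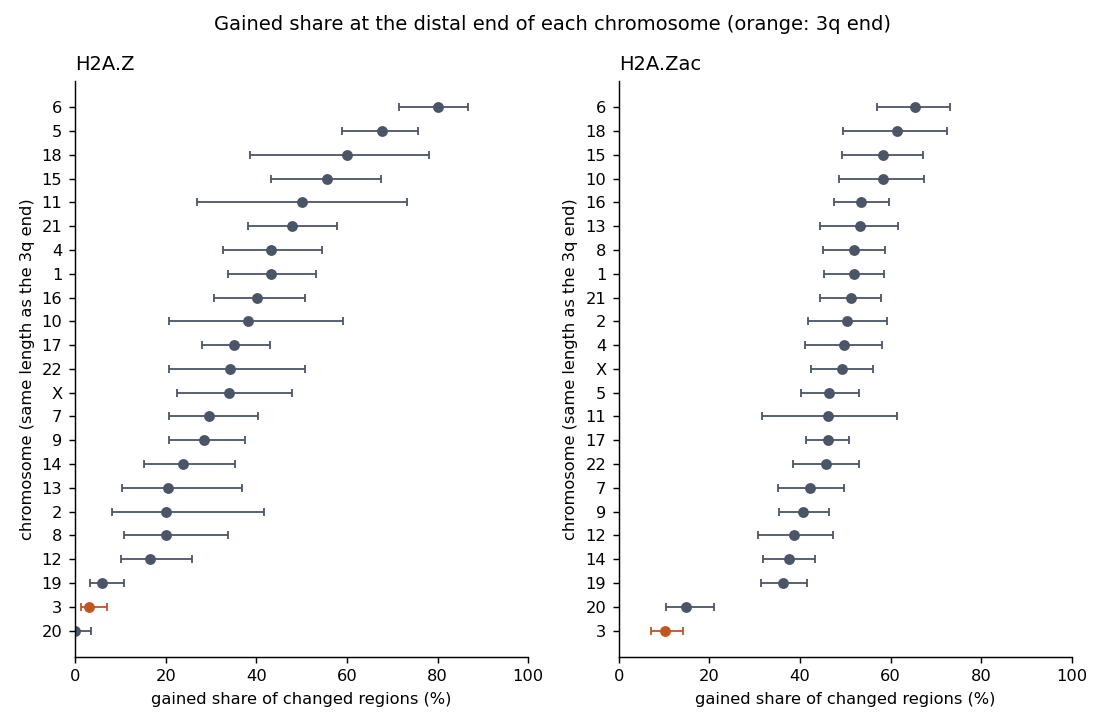
Points give the gained share of changed regions, in percent, in the last 8.30 Mb of each chromosome for H2A.Z (left) and H2A.Zac (right), and bars give Wilson 95% confidence intervals. The 3q end (orange) lies at 3.09% and 10.1%, beside the end of chromosome 20 at 0% and 14.9%.

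Lost regions lay mostly away from gene starts, as they did elsewhere in the genome. Near a start lay 14.6% of the lost H2A.Z regions and 21.3% of the lost H2A.Zac regions, against 18.2% and 21.7% of those outside the stretch. Of 218 H2A.Z regions more than 1 kb from every annotated gene start, 134 were lost, 2 gained and 82 unchanged. Of 90 within 1 kb of a start, 23 were lost, 3 gained and 64 unchanged. The lost share was thus 61.5% (54.9 to 67.7%) away from starts and 25.6% (17.7 to 35.4%) near them, against 25.1% and 10.2% in the series. For H2A.Zac, 196 of 325 regions away from starts (60.3%) and 53 of 128 near them (41.4%) were lost, against 30.6% and 16.6% in the series. Away from starts, the gained H2A.Zac regions numbered 19 and near starts 9. Of the 157 lost H2A.Z regions, 115 (73.2%) lay between protein-coding genes and away from starts, with 13 in introns and 6 in exons away from starts. The 23 near a start were counted apart, and some of them also lay between protein-coding genes. The 3q end was dense in both marks, with 37.1 H2A.Z and 54.6 H2A.Zac regions per Mb, against 20.8 and 31.1 over chromosomes 1 to 22 and X. This was not particular to it. The equally long stretch just before held 278 H2A.Z and 341 H2A.Zac regions, against 308 and 453. Most chromosome ends of the same length held fewer, but some held more. That of chromosome 19 had 166 changed and 339 unchanged H2A.Z regions, against 162 and 146 in the 3q end.

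Lost regions of the 3q end were a little wider than lost regions elsewhere. Their median width was 656 bp for H2A.Z (quartiles, 395 and 1097 bp), against 524 bp outside the stretch, and 882 bp for H2A.Zac, against 701 bp. Unchanged H2A.Zac regions were also wider than those outside (844 against 735 bp), whereas unchanged H2A.Z regions were narrower (616 against 699 bp). Gained regions of the stretch were narrower than lost ones, with medians of 426 bp (H2A.Z) and 461 bp (H2A.Zac). The median GC content was 51.1% for lost, 57.7% for the 5 gained and 53.5% for unchanged H2A.Z regions. For lost, gained and unchanged H2A.Zac regions it was 50.6%, 47.7% and 50.4%. Lost H2A.Z regions lay a median of 8.58 kb from the nearest gene start, and unchanged ones 2.48 kb, against 8.20 and 3.54 kb outside the stretch. A near-identical copy elsewhere in hg38, of at least 90% of the length at 95% identity or more, was found for 7 of 157 lost, 0 of 5 gained and 16 of 146 unchanged H2A.Z regions. For H2A.Zac it was found for 15 of 249 lost, 1 of 28 gained and 19 of 176 unchanged regions.

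Most lost H2A.Z regions lay on lost H2A.Zac regions, but most lost H2A.Zac regions did not lie on lost H2A.Z regions. Of the 157 lost H2A.Z regions, 113 had at least 25% of their length on a lost H2A.Zac region (72.0%, 64.5 to 78.4%), 0 on a gained one and 35 on none of any class. Over all H2A.Z regions of the stretch, whatever their class, the first share was 56.5%. Outside the stretch it was 65.9% for lost H2A.Z regions and 25.8% for all, so the share of lost regions stood less far above that of all regions in the stretch, which was itself selected for few gains. Of the 249 lost H2A.Zac regions, 94 lay on a lost H2A.Z region (37.8%, 32.0 to 43.9%), against 24.5% of all H2A.Zac regions of the stretch, 57 on an unchanged one and 114 on no H2A.Z region of any class. Outside the stretch the shares on a lost H2A.Z region were 28.5% of lost and 8.64% of all H2A.Zac regions. All 5 gained H2A.Z regions lay on gained H2A.Zac regions, and 4 of them also lay on an unchanged one. Outside the stretch 65.8% of the gained H2A.Z regions lay on a gained H2A.Zac region. Of the 146 unchanged H2A.Z regions, 61 lay on a lost H2A.Zac region (41.8%, 34.1 to 49.9%) and 5 on a gained one (3.42%, 1.47 to 7.77%). Outside the stretch, 19.5% of the unchanged H2A.Z regions lay on a lost and 25.2% on a gained H2A.Zac region. Both marks were measured in the same 2 clones, so the second mark is not an independent test of the first.

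At the starts of protein-coding genes, loss was again more common than gain. Of the 62 protein-coding genes that start in the stretch, 47 had a region of either mark within 1 kb of the start and 15 had none. For H2A.Z, 13 genes had a lost region and no gained one, 0 a gained one and 30 unchanged regions only. Of the 43 starts with an H2A.Z region, 30.2% were thus lost, against 10.4% of 12033 such starts in the genome, and 0 gained, against 21.6%. For H2A.Zac, 23 genes had a lost region and no gained one, 2 a gained one and no lost one, 4 both and 18 unchanged regions only. Of the 47 starts with an H2A.Zac region, 48.9% were lost, against 20.2% of 12472 in the genome, and 12.8% had a gained region, against 55.7%. Neighboring genes can share a region: the 13 genes with lost H2A.Z shared 10 regions, and the changed H2A.Zac regions at protein-coding starts were 26 lost and 5 gained.

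A lost region of each mark lay within 1 kb of 11 annotated gene starts. The window could hold other regions as well: 6 of the 11 (PLAAT1, XXYLT1, NRROS, PIGX, PIGZ and MELTF) also had an unchanged H2A.Z region and 4 (XXYLT1, NRROS, PIGX and MELTF) an unchanged H2A.Zac region. The strongest was the shared start of ZDHHC19, a palmitoyltransferase, and SLC51A, a subunit of the bile acid and steroid transporter OSTα-OSTβ, where 1 region per mark covered both starts with ratios of 12.4 for H2A.Z and 30.6 for H2A.Zac. At the start of PLAAT1, a phospholipase and acyltransferase, the ratios were 6.73 and 20.5. At FAM43A they were 5.64 and 16.0. At XXYLT1, which adds xylose to the epidermal growth factor repeats of Notch, they were 4.17 and 14.5, in regions 0.746 and 0.643 kb upstream, while the regions over the start itself were unchanged in both marks (0.969 and 0.762). At TNK2, a nonreceptor tyrosine kinase, they were 11.1 and 8.24. At MUC4, a membrane mucin, they were 6.35 and 7.95. NRROS, a partner of latent TGFβ on myeloid cells, and PIGX, a subunit of the first mannosyltransferase of GPI synthesis, shared a start region with 4.25 and 11.8. PIGZ, the mannosyltransferase that adds the last mannose, had 9.41 and 11.8, and MELTF, the iron-binding protein melanotransferrin, 6.61 and 9.38. Ratios are ranked here within a mark only.

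Some annotated gene starts lie far from the start of the canonical transcript. For PIGX the canonical start lies 72.6 kb downstream, at the shared promoter with CEP19, where both marks were unchanged (0.641 and 0.801). For SLC51A it lies 5.05 kb away with no region of either mark, and for TNK2 3.39 kb away, where H2A.Z was unchanged (0.716) and H2A.Zac lost (4.31). For PIGZ, 0.227 kb away, the H2A.Z loss fell outside the 1 kb window. Conversely, at the canonical start of ATP13A3, a P5-type ATPase of polyamine transport, a lost H2A.Zac region with a ratio of 20.8 lay beside an unchanged H2A.Zac region (0.817) and an unchanged H2A.Z region (0.694). With canonical starts, 7 genes lost both marks, namely PLAAT1, FAM43A, XXYLT1, MUC4, ZDHHC19, NRROS and MELTF.

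At 12 gene starts a lost H2A.Zac region was listed, with no gained one and no lost H2A.Z region. At 4 others (PPP1R2, TFRC, IQCG and LMLN) a lost and a gained H2A.Zac region both lay within 1 kb, over unchanged H2A.Z. At 11 of the 12, all but CPN2, an unchanged H2A.Zac region also lay within 1 kb. The strongest was CPN2, which encodes the regulatory subunit of the plasma enzyme carboxypeptidase N, with an H2A.Zac ratio of 35.4 at a start with no H2A.Z region. A second lost H2A.Zac region, with a ratio of 42.9, lay 1.38 kb upstream of it. SMCO1 also lost H2A.Zac (7.23) with no H2A.Z region. At the other 10, H2A.Z was unchanged and the H2A.Zac ratios were low. They included LSG1, a GTPase of ribosome export (3.36), UBXN7, an adaptor of the ATPase p97 (3.60), NCBP2, a subunit of the nuclear cap-binding complex (4.26), FYTTD1, an mRNA export factor (4.26), RUBCN, an inhibitor of autophagy (4.60), and TMEM44 (5.43).

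Both marks were unchanged at 15 gene starts. These included OPA1, the GTPase of mitochondrial inner membrane fusion (0.645 for H2A.Z and 0.681 for H2A.Zac), HES1, a transcriptional repressor downstream of Notch (0.619 and 0.963), and RPL35A, a ribosomal protein (0.717 and 0.740). The genes for PCYT1A, which makes CDP-choline, RNF168, a ubiquitin ligase of the DNA damage response, PAK2 and the SUMO protease SENP5 were unchanged as well, with H2A.Z ratios of 1.01, 0.634, 0.556 and 0.220. CCDC50 had a lost H2A.Z region (4.58) 0.392 kb downstream of its start. The H2A.Z region over the start (0.718) and the H2A.Zac region (0.414) were unchanged. The 15 genes with no region of either mark included the 7 genes nearest the boundary, from P3H2 to OSTN, together with PYDC2, FGF12, ATP13A5, LRRC15, GP5, ATP13A3, MUC20 and BDH1.

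The counts by functional group are read against the shares over the whole stretch given above (30.2% of listed starts lost for H2A.Z and 48.9% for H2A.Zac), and the groups are small. Of the 2 iron genes, MELTF lost both marks and TFRC had unchanged H2A.Z. Of the 2 mitochondrial genes, OPA1 was unchanged and BDH1 had no region. Of the 4 genes of DNA damage and ubiquitin signaling (RNF168, UBXN7, FBXO45 and WDR53), 0 lost H2A.Z and 1 lost H2A.Zac. Of the 5 genes of the ribosome, RNA and protein synthesis, 0 lost H2A.Z and 4 lost H2A.Zac. Of the 6 regulators of kinases, GTPases and phosphatases, 1 lost each mark and PPP1R2 had both a lost and a gained H2A.Zac region. Of the genes listed under phospholipids and lipids, PLAAT1 and SLC51A lost both marks, PCYT1A was unchanged in both, and APOD gained H2A.Zac over unchanged H2A.Z. XXYLT1, which also lost both, had been put in that list although its product acts on Notch. Both GPI anchor genes lost both marks at the annotated gene starts, but at the canonical starts neither lost H2A.Z and only PIGZ lost H2A.Zac. SLC51A had no region of either mark at its canonical start. Of the 3 P5-type ATPase genes, 1 (ATP13A4) had a region of either mark at the gene start, unchanged in both. Of the 4 genes for leucine-rich repeat proteins, the 1 with an H2A.Z region and the 2 with an H2A.Zac region had lost ones. The 3q29 deletion interval, from TFRC to BDH1, has 22 listed genes (without 2 others that start there, ENSG00000272741 and the readthrough gene TM4SF19-DYNLT2B). Of the 22, 6 lost H2A.Z, 0 gained it, 13 were unchanged and 3 had no region. For H2A.Zac, 11 had a lost region and no gained one, 1 (TFRC) both, 9 unchanged regions only and 1 none. Of the starts with a region, 31.6% thus lost H2A.Z and 52.4% lost H2A.Zac. At canonical starts 3 of 18 lost H2A.Z (16.7%) and 9 of 20 lost H2A.Zac (45.0%).

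**Figure D3:**
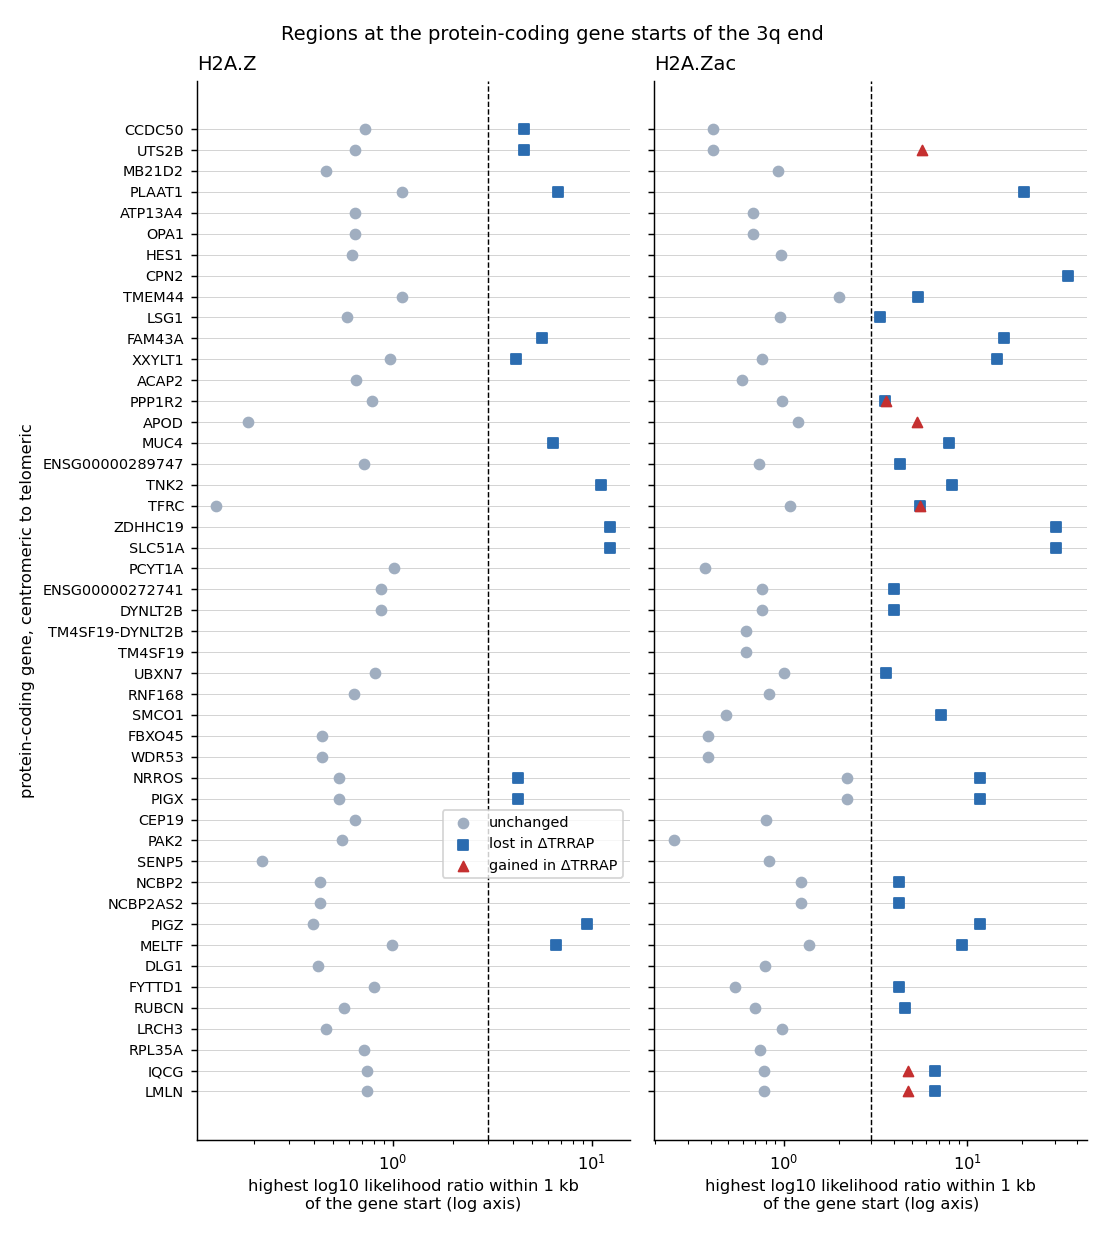
Each row is 1 of the 47 protein-coding genes with a region within 1 kb of its start, and points give the highest log10 likelihood ratio of its lost (squares), gained (triangles) and unchanged (circles) regions on a log axis, for H2A.Z (left) and H2A.Zac (right). The dashed line is the cutoff of 3. Gained regions appear in 6 rows, all for H2A.Zac, and the highest lost ratios are those of ZDHHC19 and SLC51A for H2A.Z and of CPN2 for H2A.Zac.

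Most of the strongest losses lay between protein-coding genes. The strongest for both marks was at chr3:195002668-195004296, with an H2A.Z ratio of 29.3, inside an H2A.Zac region at chr3:195002524-195004442 with a ratio of 91.5. It lay in the 379 kb between FAM43A and XXYLT1, 267 kb downstream of the XXYLT1 start, and this gap held 2 lost and 2 unchanged H2A.Z regions, 4 lost H2A.Zac regions and no gained ones. The central 300 bases of this site are those printed first. A second lost pair in the gap, at chr3:194984593-194986142, had ratios of 12.0 and 32.8. The second strongest H2A.Z loss was at chr3:196163415-196164439, with 28.0 for H2A.Z and 53.6 for H2A.Zac, between TFRC and ZDHHC19. A site at chr3:196687208-196689259 had a lost H2A.Zac ratio of 54.7 and no listed H2A.Z region, and it lay within the annotated span of PIGX, upstream of its canonical start. The site at chr3:195844110-195845860, over the noncoding gene LINC01983 between MUC4 and TNK2, had an H2A.Zac ratio of 45.9. Upstream of APOD, chr3:195630286-195630668 had a lost H2A.Z ratio of 20.5, although this region has a near-identical copy elsewhere in hg38 (1 found), between which reads may not be told apart. Near the telomere, chr3:198081181-198081598 had 19.2 inside an H2A.Zac loss of 32.7.

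Around HES1, many regions of the flanking sequence were lost while the start itself was unchanged. HES1 was the nearest gene of 126 regions, more than any other gene, and 74 of them were lost (58.7%), against 53.4% of all regions of the stretch, and 1 gained. The 438 kb between OPA1 and HES1 held 23 lost, 1 gained and 23 unchanged H2A.Z regions and 47 lost, 2 gained and 42 unchanged H2A.Zac regions. The lost shares there, 48.9% and 51.6%, were near those of the stretch. The 201 kb between HES1 and CPN2 held 25 lost, 0 gained and 8 unchanged H2A.Z regions and 24 lost, 2 gained and 7 unchanged H2A.Zac regions, with lost shares of 75.8% (59.0 to 87.2%) and 72.7% (55.8 to 84.9%). A lost H2A.Zac region lay 2.10 kb upstream of the HES1 start, with a ratio of 4.60. The H2A.Z regions at 0.682 and 1.41 kb downstream of the HES1 start had ratios of 0.619 and 0.423 and were unchanged. At 6.38 and 7.46 kb downstream they were lost, with 5.46 and 6.80. Farther on, the strongest were those at 81.9 kb, with 14.9 for H2A.Z and 32.5 for H2A.Zac, and at 86.9 kb, with 13.0 for H2A.Z, beside 30.3 for H2A.Zac, both over the noncoding gene LINC02036. The 2 gained H2A.Zac regions lay 5.25 and 119 kb downstream of the HES1 start, with ratios of 8.54 and 11.6, and a lost H2A.Zac region lay 0.539 and 0.231 kb from them, respectively.

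**Figure D4:**
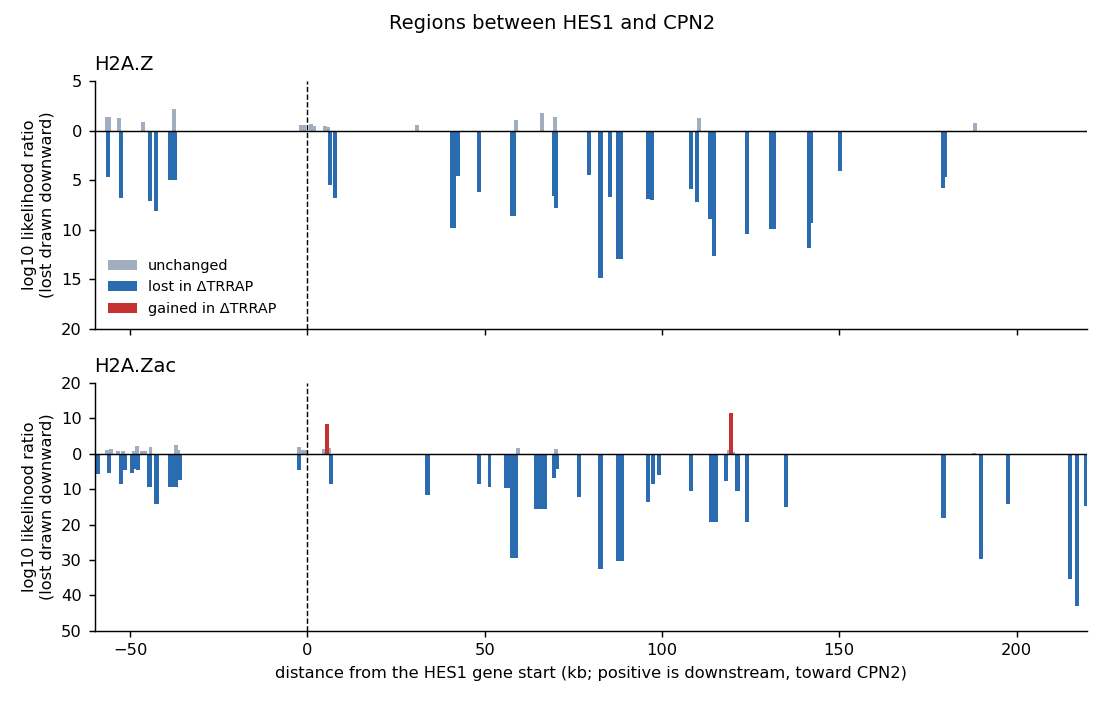
Bars give the log10 likelihood ratio of each H2A.Z (top) and H2A.Zac (bottom) region by its distance in kb from the HES1 start (dashed line), with lost regions drawn downward. Narrow regions are drawn wider than they are. Lost regions fill the sequence between HES1 and CPN2, H2A.Z has no gained region there, and the regions at the HES1 start stay close to 0.

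Gain was rare. The 5 gained H2A.Z regions had ratios between 3.88 and 9.11, and 3 of them lay 45.3, 60.0 and 60.6 kb upstream of TFRC, the transferrin receptor that brings iron into erythroid cells. Of the other two, one lay between OPA1 and HES1, at chr3:193853654-193853904 with a ratio of 6.39, and one over the noncoding gene LINC01063, 6.43 kb upstream of NRROS, with 3.88. The median distance from a gained H2A.Z region to the nearest lost one was 6.70 kb (range, 3.87 to 18.9 kb). The 28 gained H2A.Zac regions had ratios between 3.59 and 15.1. Of these, 18 lay within 10 kb of a lost H2A.Zac region, at a median distance of 3.54 kb over all 28 (range, 0.0910 to 93.4 kb). In the stretch 55.0% of H2A.Zac regions were lost, and the median gap between H2A.Zac regions was 1.48 kb. The distance of other regions to a loss was not computed, so closeness to a loss is not read as a trait of gained regions. The farthest from a loss were the one near the UTS2B start (93.4 kb) and one in an OPA1 intron (87.7 kb). The strongest gained H2A.Zac region was at chr3:195815630-195816552, 3.66 kb upstream of MUC4, with 15.1, and 2.75 kb from the lost region at the MUC4 start. The next in order were one over the noncoding gene MUC20-OT1, 3.79 kb upstream of MUC20, with 13.7, the one over the H2A.Z gain near NRROS with 12.9, a second over MUC20-OT1 with 12.8, and the one over the H2A.Z gain between OPA1 and HES1 with 12.7.

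At gene starts, gained H2A.Zac was found for 6 protein-coding genes, with ratios below 6. Each of the 6 also had an unchanged H2A.Zac region within 1 kb of its start. UTS2B, which encodes a urotensin-like peptide, had a gained region with 5.70 at 0.443 kb upstream of its start. The H2A.Zac region over that start was unchanged (0.414). A lost H2A.Z region with 4.58, which UTS2B shares with CCDC50, and an unchanged one (0.646) also lay within 1 kb. APOD, a lipocalin that binds lipids, had a gained region over its start with 5.35, beside an unchanged H2A.Zac region with 1.20. Its H2A.Z region was unchanged with 0.187. PPP1R2, an inhibitor of protein phosphatase 1, had a gained region with 3.62 and a lost one with 3.56. IQCG, a calmodulin-binding ciliary protein, and LMLN, a metallopeptidase, share a start at which H2A.Zac was gained with 4.76 and lost with 6.65. TFRC had 5.51 and 5.52. H2A.Z was unchanged at the starts of the last 4, with ratios of 0.779 for PPP1R2, 0.740 for IQCG and LMLN and 0.129 for TFRC.

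The sequence upstream of TFRC held most of the H2A.Z gain of the 3q end, between stronger losses. The 115 kb from the TFRC start to ZDHHC19 held 13 lost, 3 gained and 9 unchanged H2A.Z regions and 19 lost, 3 gained and 9 unchanged H2A.Zac regions. The 13 of 25 and 19 of 31 lost were near the shares of the stretch (51.0% and 55.0%). Going upstream from the start, 7 H2A.Z regions were lost, from 9.45 kb (6.04) to 40.2 kb (15.7). The gained regions followed at 45.3, 60.0 and 60.6 kb upstream, with ratios of 5.21, 4.15 and 9.11, the farther pair over the noncoding gene LINC00885. Beyond them came the lost region of 28.0 at 81.3 kb, and 5 more with ratios from 5.03 to 9.73 between 97.2 and 113 kb. H2A.Zac followed the same order, with gained ratios of 8.40 and 7.53 at 45.5 and 61.0 kb, a weaker gained region between them at 60.3 kb, and lost ratios of 36.2 at 38.9 kb and 53.6 at 80.6 kb. Short lost H2A.Zac regions flanked the gained ones within 2 kb, among them one of 4.96 at 46.2 kb and one of 7.51 at 62.7 kb. At the start itself, the H2A.Z region was unchanged (0.129), and H2A.Zac was split into a gained region 0.0210 kb downstream of the start (5.51), an unchanged one over the start (0.666) and a lost one 0.638 kb upstream (5.52).

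**Figure D5:**
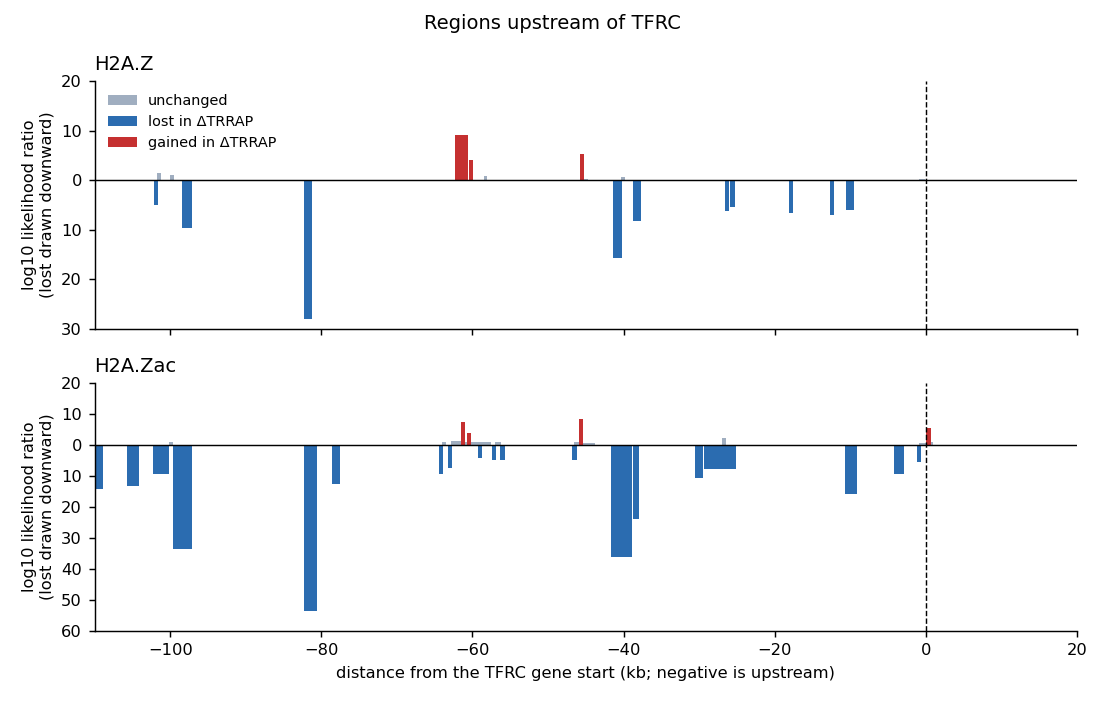
Bars give the log10 likelihood ratio of each H2A.Z (top) and H2A.Zac (bottom) region by its distance in kb from the TFRC start (dashed line; upstream is negative), with lost regions drawn downward. Narrow regions are drawn wider than they are. Gained regions stand about 45.3 and 60.0 kb upstream, between lost regions of 15.7 and 28.0 for H2A.Z.

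The labelled cell line was checked on marker genes of 4 cell types outside the stretch. An H2A.Zac region lay at the start of 7 of 8 erythroid genes (all but GATA1), 0 of 3 B cell genes, 0 of 2 hepatocyte genes and 3 of 3 T cell genes (CD3E, CD4 and TCF7). Over the genome, 12472 of 19970 protein-coding starts had an H2A.Zac region and 37.5% had none, so such a region is common at starts in general. A region at a start is no measure of expression, and the list of T cell genes does not set K562 apart from T cells.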

How the data were processed

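The ChIP-seq data cover both marks in the WT and ΔTRRAP lines. Per the labels and the study's methods, the authors aligned reads to hg38 with Bowtie2 2.4.5, pooled replicates and ran MACS2 2.2.7.1 bdgdiff between the lines. A region stayed in their lists if reproducible peaks covered 25% or more of it. The deposited score of each region is the authors' log10 likelihood ratio. It was used only to describe, rank and filter.

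The members and gene lists were chosen with earlier results of these data known. The 6 lists were read as deposited, and regions starting at or beyond 190 Mb on chromosome 3 were kept. Gene starts, exons and transcripts came from GENCODE release 44, a later release than the study's, with a window of 1 kb to each side. Genes named are those of the lists, those with a gained region at or nearest to it, and the 5 with the highest lost ratio at the start per mark. ATP13A3 was described at its canonical start after its values were seen. Copies were found with minimap2 2.31. Python 3.11.15, pandas 2.3.3, scipy 1.17.1, bedtools 2.31.1 and samtools 1.23.1 were used, and the counting was tested on simulated data. Signal tracks and gene expression were not analysed here.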

Additional observations from a re-analysis of the deposited data

How the results depend on the processing

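Of 60 alternative values for 10 results, 47 stayed within the confidence interval of the share or within 1.5 times the count, and 13 moved. Some of the 47 could hardly have moved. No changed region was listed between 188 and 190 Mb, so a boundary 2 Mb nearer the centromere left both gained shares at 3.09% and 10.1%. The stretch was also selected on these shares, so their staying is a description and no support. Lost regions outnumbered gained ones in every alternative of the 4 gained shares. Canonical starts and the leaving out of copied regions were alternatives chosen after seeing the data. Stricter likelihood ratios removed changed regions by construction. At a ratio of at least 5, the gained share of changed H2A.Zac regions was 7.08%. At 10 or more, the gained share was 0% (H2A.Z) and 4.65% (H2A.Zac), the share of all regions lost 17.0% and 40.3%, the gained share of H2A.Z near gene starts 0%, and the protein-coding starts were 3 with lost H2A.Z, 9 with lost H2A.Zac and 0 with gained H2A.Zac. The gained share of changed H2A.Zac regions was 5.72% in base pairs and 5.82% over regions of at least 500 bp. Near protein-coding starts only, 0% of 10 changed H2A.Z regions were gained. Leaving out each 1 Mb window in turn gave a gained share of 0.800% to 4.27% for H2A.Z, lowest without the window from 196 to 197 Mb that holds TFRC, and of 9.09% to 11.8% for H2A.Zac.

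No paired analysis was possible because the lists hold no value per replicate. No replicate was left out, as none has values of its own. Without read counts, no interval can be put on a single region's ratio.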
